A study of Mus musculus with 24 samples.

Results

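The 9 genes described here are Postn, Ndnf, Col18a1, Chga, Slc18a1, Pcdh7, Paqr5, Ehd3 and Tifab, out of 55487 genes with an Ensembl identifier in the count table. They were picked by name as genes of other tissues, or little studied in blood, whose measured levels rose in a group carrying MLL::ENL and fell in the group labelled RLT Vav Txp or differed by the time of induction. The group means across these contrasts therefore chose the members, and the differences between MLL::ENL and wild-type groups, or between MLL::ENL groups, are given as descriptions without a test. All 9 passed the filter on low counts that left 23059 genes for testing. A level above wild type of the same age, without overlap between groups, was seen in at least 1 MLL::ENL group for 7 of the 9. Slc18a1 and Col18a1 had their highest group mean in wild-type newborn liver and were lower, not higher, in newborn MLL::ENL cells.

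MLL::ENL fuses the DNA-binding end of the MLL methyltransferase to ENL, a subunit of transcription elongation complexes, and such fusions drive acute leukaemias of infants and adults by holding genes of the progenitor state active. Several of the 9 genes code for proteins best known outside blood. Some belong to the extracellular matrix, some to secretory granules of neuroendocrine cells and some to contacts between neural cells, while Tifab restrains a signalling pathway of innate immunity that is well studied in leukaemia.

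The 24 RNA-seq libraries fell into 6 groups of 4 and were labelled as LSK cells (lineage-negative, Sca-1+, KIT+), while the series' design text speaks of lineage-negative KIT+ progenitors. At postnatal day 0 (P0) the source was liver, taken from wild type (P0 WT) or from mice with a human MLL::ENL transgene (ME) under Tet-off control, labelled with induction at E10.5 (P0 ME). At postnatal day 28 (P28) the source was marrow, in 4 groups: wild type (P28 WT), ME induced at E10.5, ME induced at P0, and ME labelled both E10.5 and RLT Vav Txp. RLT, Vav and Txp are not expanded in the labels, and the driver of the transgene and the strain are not given in the sources used here. The design text calls the 4 libraries of each group biological replicates, and 2 of the 4 titles of the RLT Vav Txp group share their number. Liver was sampled at P0 and marrow at P28, so age and tissue cannot be told apart. In bulk RNA, fewer cells of a type and less RNA per cell cannot be told apart either.

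Library totals ran from 31233688 to 89774511 counts, and 1 CPM (the TMM-normalised count unit used throughout) stood for 32.5 to 90.1 counts in tested genes. Kit averaged 688 to 1066 CPM and Ly6a, which codes for Sca-1, 93.8 to 296 CPM across the groups. Marker lists set 2 kinds of library apart before any result. The macrophage list of 12 genes summed to 754 to 3248 CPM in the RLT Vav Txp libraries and to 55.8 to 121 CPM in the other P28 libraries. The 8 stem and progenitor markers summed to 1864 to 2798 CPM in RLT Vav Txp and to 3922 to 4691 CPM in the other P28 libraries. At P0 the libraries numbered 1 differed from the other 3 of their group, with macrophage sums of 150.0 CPM (WT) and 134.0 CPM (ME) against 1459 to 2125 CPM. Their erythroid sums were 601 and 264 CPM against 4584 to 14500 CPM, and their neutrophil sums 755 and 711 CPM against 10610 to 36490 CPM. Their stem and progenitor sums were 4509 and 4256 CPM against 1844 to 3038 CPM, so in this they were nearer the P28 WT and induced libraries. A fit without both libraries numbered 1 keeps the P0 libraries with the higher macrophage, erythroid and neutrophil sums. The P0 ME against P0 WT values and the age calls of the 9 genes are therefore also given without both libraries numbered 1. So are the age values or calls of genes named from the lists of relatives and partners, but not those of neighbours by position. Mast and basophil markers set the P0 groups apart, at 941 to 10740 CPM in P0 WT and 48.1 to 836 CPM in P0 ME. Without both libraries numbered 1 these sums were 941 to 2113 CPM and 208 to 836 CPM, so that fit keeps this difference. The part of these cell mixtures in the levels of the 9 genes was not tested.

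**Figure D1:**
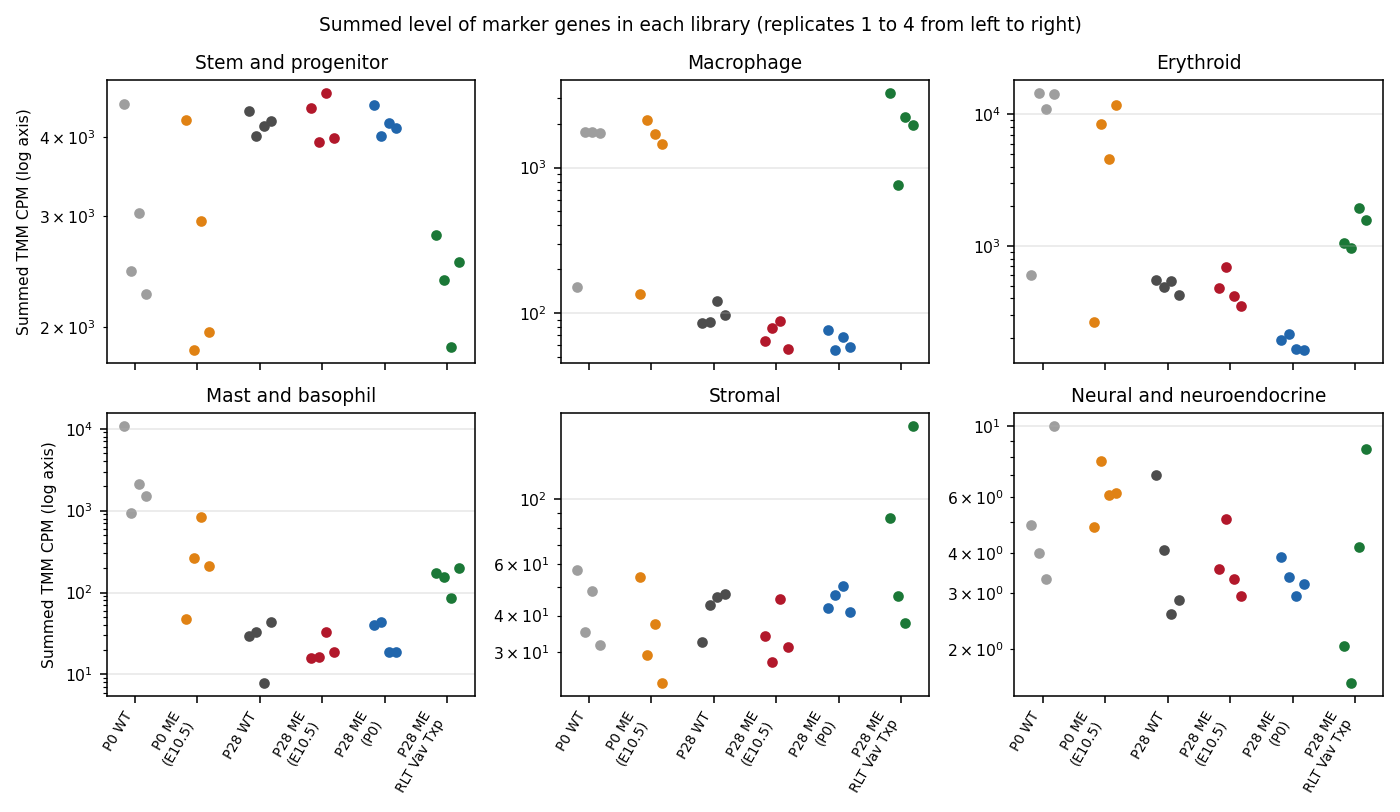
Summed TMM-normalised CPM of 6 marker lists (vertical log axis) in each of the 24 libraries, by group, with replicates 1 to 4 from left to right. The RLT Vav Txp libraries lie at 754 to 3248 CPM for macrophage markers, above the 55.8 to 121 CPM of the other P28 libraries, and the P0 libraries numbered 1 lie at 134.0 and 150.0 CPM.

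Markers of other tissues were also summed. The 10 neural and neuroendocrine markers summed to 1.57 to 9.99 CPM over all libraries, and Snap25 and Dbh had no library above 3 counts in P0 WT, P0 ME, P28 WT, P28 ME at E10.5 and RLT Vav Txp. The 5 osteoblast markers summed to 0.998 to 14.1 CPM. The 10 stromal markers summed to 23.5 to 57.5 CPM outside RLT Vav Txp and to 37.6 to 178 CPM within it, and Col1a1, a main collagen of fibroblasts and bone, averaged 0.585 to 1.10 CPM per group. Pdgfrb, a receptor of mural and stromal cells, averaged 13.2 to 37.8 CPM. Cxcl12, a niche chemokine, averaged 59.9 CPM in RLT Vav Txp and at most 7.09 CPM in the other groups. Over all libraries, endothelial markers summed to 92.1 to 242 CPM, hepatocyte markers to 174 to 718 CPM, neutrophil markers to 492 to 36490 CPM and B lymphoid markers to 4.65 to 483 CPM. Trf led the hepatocyte sum, at 201.5 to 501 CPM per group. In the P28 groups Afp averaged 13.1 to 30.0 CPM and Alb at most 1.32 CPM. Pecam1, Tek and Emcn led the endothelial sum, while Cdh5 averaged 0.138 to 4.71 CPM per group. In P0 ME, where Postn averaged 108 CPM, Col1a1 averaged 0.998 CPM (0.201 to 3.09 CPM), Col1a2 4.41 CPM and Pdgfrb 24.5 CPM. The whole stromal list summed to 23.5 to 54.4 CPM there and to 31.7 to 57.5 CPM in P0 WT. The part of stromal cells in the Postn level was not tested. In ME induced at E10.5 at P28, where Chga averaged 62.2 CPM, Snap25, Dbh and Syt1 had no library above 3 counts. In the same group Th, the enzyme that starts catecholamine synthesis, stood at 1.12 to 2.36 CPM with a mean of 1.70, against a mean of 0.640 CPM in P28 WT. Syp, a synaptic vesicle protein, averaged 0.922 CPM against 0.667 CPM. The whole list summed to 2.93 to 5.13 CPM there and to 2.58 to 7.04 CPM in P28 WT.

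The promoters of Pcdh7, Ehd3 and Tifab are shown because, of the 9 genes, their mean levels at P28 were furthest apart between the inductions, 15.7-fold, 4.43-fold and 4.96-fold higher after E10.5 than after P0. Postn, Chga and Col18a1 also had every library of ME induced at E10.5 above every library of ME induced at P0, with ratios of 1.77, 2.34 and 2.24. Each sequence covers 250 bases before and 50 after a RefSeq transcript start on GRCm38.p6, written 5′ to 3′ on the gene's own strand, with CpG pairs in capitals. A RefSeq promoter was matched for 7 of the 9 genes. Ndnf and Slc18a1 are named only.
Pcdh7 (chr5:57717831-57718130, plus strand): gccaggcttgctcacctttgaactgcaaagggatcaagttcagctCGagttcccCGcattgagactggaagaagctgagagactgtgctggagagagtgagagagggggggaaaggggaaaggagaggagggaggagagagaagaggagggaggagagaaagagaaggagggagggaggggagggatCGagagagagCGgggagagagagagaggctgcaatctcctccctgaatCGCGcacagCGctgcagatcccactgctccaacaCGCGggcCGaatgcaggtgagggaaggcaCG
Ehd3 (chr17:73804591-73804890, plus strand): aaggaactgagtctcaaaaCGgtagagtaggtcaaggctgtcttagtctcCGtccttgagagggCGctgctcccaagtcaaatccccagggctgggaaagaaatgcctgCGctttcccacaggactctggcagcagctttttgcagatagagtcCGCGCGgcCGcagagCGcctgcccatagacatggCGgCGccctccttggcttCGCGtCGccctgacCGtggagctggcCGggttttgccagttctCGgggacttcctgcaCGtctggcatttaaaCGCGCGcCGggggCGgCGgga
Tifab (chr13:56178836-56179135, minus strand): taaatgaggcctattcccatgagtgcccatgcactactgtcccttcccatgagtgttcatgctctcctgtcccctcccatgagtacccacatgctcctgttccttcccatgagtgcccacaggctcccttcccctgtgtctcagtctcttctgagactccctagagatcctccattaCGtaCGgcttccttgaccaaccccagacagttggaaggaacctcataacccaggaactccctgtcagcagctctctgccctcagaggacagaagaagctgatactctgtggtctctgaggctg
The windows differed in CpG content, with 24 CpG pairs in Ehd3, 11 in Pcdh7 and 2 in Tifab, against a median of 7 over 32544 promoters of the same length. Tifab had fewer CpG pairs than most, since 14.0% of promoters held fewer, while 79.9% held fewer than Ehd3. The Chga window (chr12:102554691-102554990, plus strand) held 21, that of Paqr5 (chr9:62026741-62027040, minus strand) 21, and the 2 listed windows of Postn held 4 and 5. Motifs linked to partners of MLL-fusion leukaemia were searched on both strands. TGATTNAT, the HOX-PBX motif, was found in 0 of the listed windows of the 7 genes and in 3.23% of all promoters. TGACAG, the MEIS motif, occurred in Tifab alone among these windows and in 19.1% of all promoters. TGTGGT, the RUNX motif, occurred in Tifab and in 1 of the 2 Col18a1 windows, against 16.7% of all promoters. AGATAA, the GATA motif, was in 0 of them and in 11.2% of all promoters. Matches describe these letters only.

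**Figure D2:**
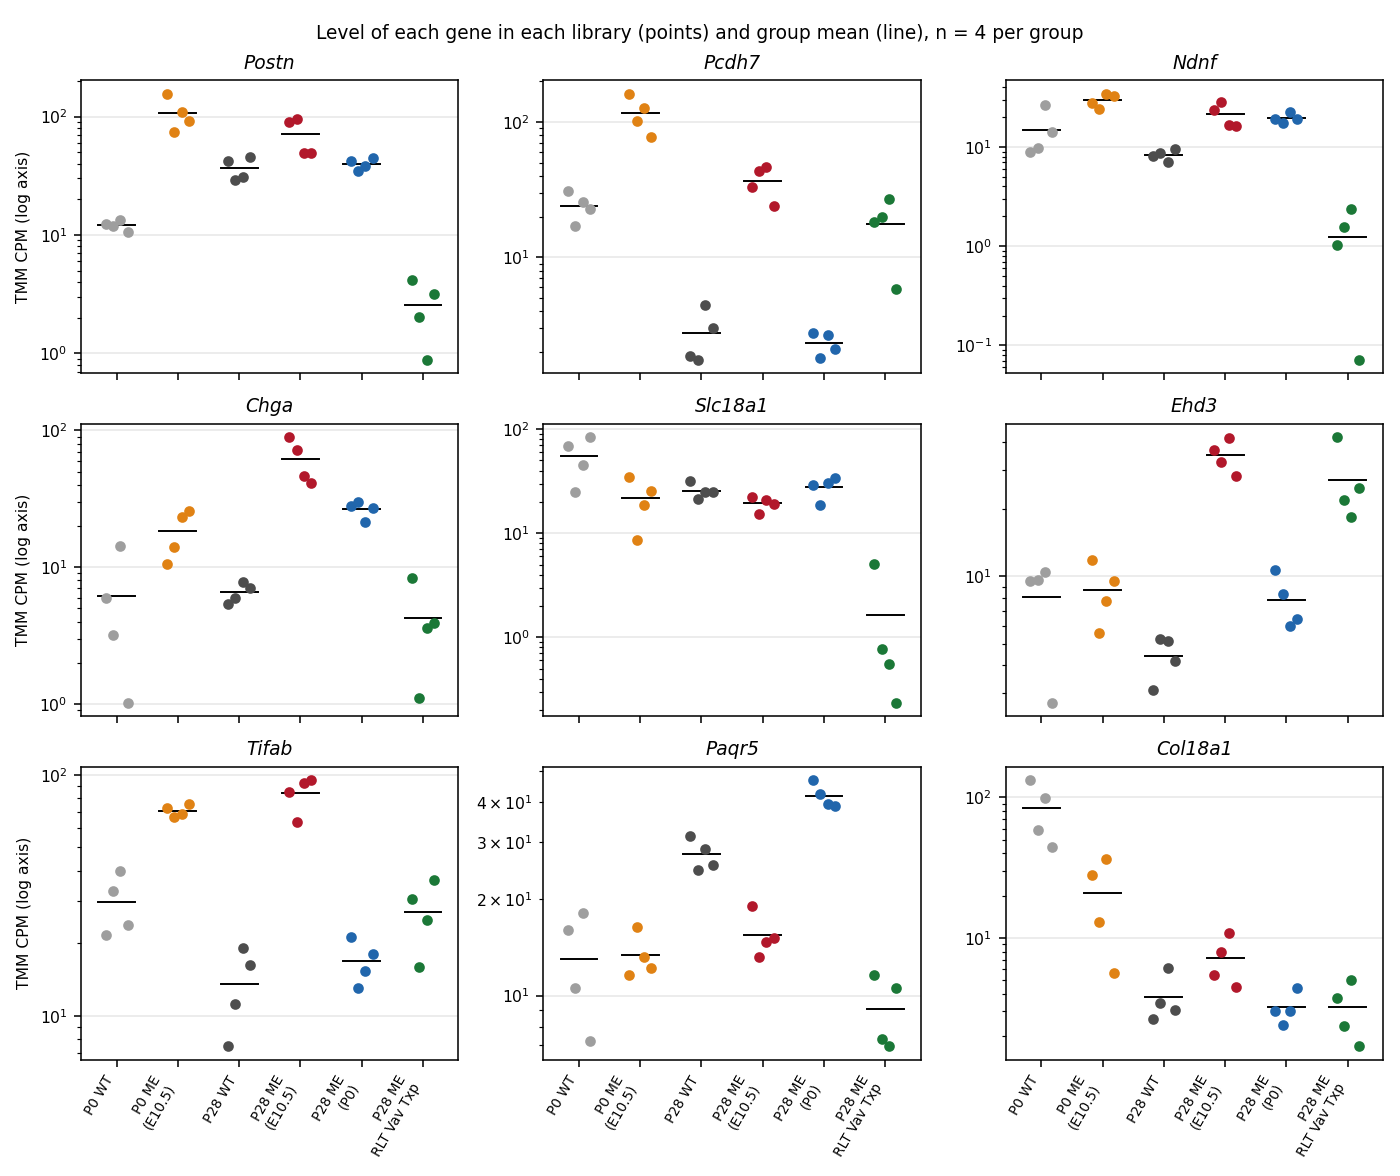
TMM-normalised CPM (vertical log axis) of the 9 genes in each library, 1 panel per gene, with a line at the mean of each group of 4. Pcdh7, Ehd3 and Tifab stand higher in ME induced at E10.5 than in ME induced at P0 at P28, and Postn, Ndnf and Slc18a1 are lowest in RLT Vav Txp.

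Counts over the 9 genes describe the contrasts that chose them, and nothing is read from these counts. The share of all tested genes that met the same criterion stands in brackets. P0 ME against P0 WT had 3 of the 9 called higher by edgeR (0.364%) and 1 lower (0.278%), and 4 did not overlap between groups (3.74%). ME induced at E10.5 against P28 WT had 5 called higher (7.82%) and 1 lower (4.44%), and 7 without overlap (28.2%). ME induced at P0 against P28 WT had 0 called higher (0.494%) and 0 lower (1.08%) by edgeR, with 4 at an unadjusted p under 0.05, 1 by DESeq2 and 3 by limma voom. In that comparison 4 genes did not overlap (24.8%), namely Ndnf, Chga, Ehd3 and Paqr5, all higher. Induction at P0 against induction at E10.5 had 1 called higher (0.026%) and 3 lower (0.0217%), and 7 without overlap (11.8%). RLT Vav Txp against P28 WT had 3 called higher (2.64%) and 4 lower (1.48%), and 6 without overlap (11.5%). Against ME induced at E10.5 it had 0 called higher (8.5%) and 7 lower (9.38%), and 6 without overlap (25.7%). Against ME induced at P0 it had 2 called higher (6.75%) and 5 lower (4.9%), and 7 without overlap (24.3%). The 3 comparisons with P28 WT share its 4 libraries.

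**Figure D3:**
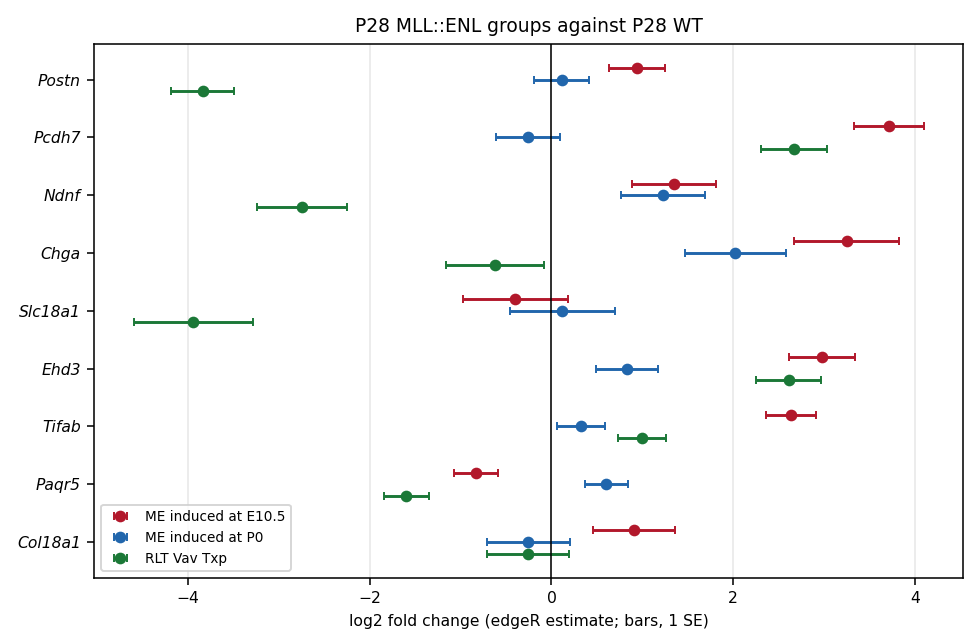
Log2 fold change (horizontal axis, edgeR estimate, bars 1 SE) of each gene in the 3 P28 MLL::ENL groups against P28 WT, which all 3 share. Pcdh7 stands at 3.71 after induction at E10.5, -0.26 after induction at P0 and 2.67 in RLT Vav Txp, while Paqr5 stands at -0.83, 0.60 and -1.60.

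Postn (ENSMUSG00000027750, chromosome 3, 54361109 to 54391037, plus strand, a protein-coding gene) codes for periostin, a secreted matricellular protein that binds integrins and is abundant in periosteum and remodelling connective tissue. In newborn liver it stood at 12.3, 12.0, 13.3 and 10.7 CPM in the P0 WT libraries 1 to 4 and at 156, 73.4, 108 and 92.1 CPM in P0 ME. At P28 it stood at 42.3, 29.2, 30.7 and 45.1 CPM in WT, 89.5, 94.4, 49.0 and 49.4 CPM in ME induced at E10.5 and 41.7, 34.4, 38.2 and 44.8 CPM in ME induced at P0. The RLT Vav Txp libraries held 4.15, 2.04, 0.882 and 3.16 CPM. Every P0 ME library exceeded every P0 WT library and every RLT Vav Txp library lay below all 20 others, while P28 WT and ME induced at P0 overlapped. The newborn mean was 12.1 ± 1.09 CPM (SD, n = 4) for WT and 108 ± 35.5 CPM (SD, n = 4) for ME, a ratio of 8.91-fold and a log2 fold change of 3.15 (SE 0.33). Without both P0 libraries numbered 1 that value was 2.93. At P28 the log2 fold change against WT was 0.94 (SE 0.31) for induction at E10.5, 0.11 (SE 0.30) for induction at P0 and -3.84 (SE 0.34) in RLT Vav Txp. Mean Postn was 27.6-fold lower in RLT Vav Txp than in ME induced at E10.5.

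Ndnf (ENSMUSG00000049001, chromosome 6, 65671590 to 65712326, plus strand) codes for a secreted glycoprotein first described as a neurotrophic factor. P0 WT libraries held 8.85, 9.80, 26.3 and 14.2 CPM and P0 ME libraries 27.9, 24.1, 34.5 and 32.5 CPM, with 1 P0 WT library inside the P0 ME range. At P28 the level was 8.08, 8.60, 7.10 and 9.63 CPM in WT, 23.8, 28.2, 16.8 and 16.4 CPM in ME induced at E10.5 and 18.9, 17.6, 22.6 and 19.1 CPM in ME induced at P0. Both ME groups lay above all 4 WT libraries and overlapped each other. RLT Vav Txp held 1.02, 1.56, 2.35 and 0.0719 CPM, below every other library, and its library 4 was an order of magnitude under the other 3. Against P28 WT the log2 fold change was 1.35 (SE 0.46) for induction at E10.5, 1.23 (SE 0.46) for induction at P0 and -2.75 (SE 0.49) for RLT Vav Txp. Between the 2 inductions it was -0.12 (SE 0.46).

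Col18a1 (ENSMUSG00000001435, chromosome 10, 77052178 to 77166548, minus strand) codes for collagen XVIII, a basement membrane proteoglycan whose cleaved end is endostatin. It was highest in newborn wild-type liver, at 132, 58.5, 98.6 and 44.3 CPM, and stood at 27.9, 13.0, 36.4 and 5.65 CPM in P0 ME. Marrow levels at P28 were 2.66, 3.45, 6.10 and 3.05 CPM in WT, 5.46, 8.00, 10.8 and 4.51 CPM in ME induced at E10.5, 3.03, 2.40, 3.00 and 4.44 CPM in ME induced at P0 and 3.74, 2.35, 5.02 and 1.69 CPM in RLT Vav Txp. The P0 groups did not overlap, and all P28 groups lay in one range from 1.69 to 10.8 CPM. Col18a1 was 4.03-fold lower in P0 ME than in P0 WT by mean CPM, with a log2 fold change of -2.01 (SE 0.46), and -1.87 without both P0 libraries numbered 1. At P28 the value for ME induced at E10.5 against WT was 0.91 (SE 0.45), with overlapping groups.

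Chga (ENSMUSG00000021194, chromosome 12, 102554969 to 102565028, plus strand) codes for chromogranin A, an acidic protein that packs secretory granules of neuroendocrine cells and is the precursor of several peptides. P0 WT libraries held 5.91, 3.19, 14.4 and 1.02 CPM and P0 ME libraries 10.53, 14.0, 23.4 and 25.9 CPM, which overlapped. At P28 the libraries held 5.37, 5.95, 7.81 and 7.04 CPM in WT, 89.5, 71.9, 46.5 and 41.0 CPM in ME induced at E10.5 and 28.2, 30.0, 21.3 and 27.1 CPM in ME induced at P0. All 8 of these ME libraries exceeded all 4 WT libraries, and induction at E10.5 lay above induction at P0 without overlap. RLT Vav Txp held 8.41, 1.11, 3.58 and 3.88 CPM and overlapped P28 WT. The mean was 6.54 ± 1.09 CPM (SD, n = 4) in P28 WT and 62.2 ± 22.6 CPM (SD, n = 4) in ME induced at E10.5, 9.51-fold higher. Log2 fold changes against P28 WT were 3.25 (SE 0.58), 2.02 (SE 0.56) and -0.62 (SE 0.54) for induction at E10.5, induction at P0 and RLT Vav Txp.

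Slc18a1 (ENSMUSG00000036330, chromosome 8, 69037711 to 69089235, minus strand) codes for VMAT1, a vesicular transporter that loads monoamines into granules, mainly in neuroendocrine cells. It overlaps Atp6v1b2 on the other strand, with 0 shared exon bases. The level was 69.4, 24.8, 44.8 and 84.2 CPM in P0 WT and 35.0, 8.65, 18.6 and 25.6 CPM in P0 ME, and at P28 31.6, 21.2, 25.1 and 24.9 CPM in WT, 22.4, 15.4, 21.1 and 19.2 CPM in ME induced at E10.5 and 29.1, 18.8, 30.1 and 33.9 CPM in ME induced at P0. In order of their means, each of these 5 groups overlapped the next, and 0 MLL::ENL groups stood above wild type of their age without overlap. RLT Vav Txp held 5.05, 0.771, 0.557 and 0.234 CPM and lay below all other libraries. The log2 fold change of RLT Vav Txp was -3.94 (SE 0.65) against P28 WT, -3.54 (SE 0.64) against ME induced at E10.5 and -4.06 (SE 0.66) against ME induced at P0. Library 1 of RLT Vav Txp set the size of these values, which became -5.60, -5.21 and -5.73 without it. The same library had the highest macrophage sum of its group, 3248 CPM, and the part of that difference was not tested.

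Pcdh7 (ENSMUSG00000029108, chromosome 5, 57717967 to 58133230, plus strand) codes for a non-clustered protocadherin, a cell-surface adhesion protein known from neurons and from bone metastasis. It shares 2235 exon bases with the antisense transcript 4932441J04Rik, whose count reached at most 873 in a library against 10526 for Pcdh7. The strand setting of the counting is not given in the sources used here. Newborn libraries held 30.8, 17.0, 25.8 and 22.9 CPM in WT and 163, 102, 126 and 77.2 CPM in ME. At P28 they held 1.87, 1.76, 4.44 and 2.98 CPM in WT and 2.78, 1.80, 2.69 and 2.09 CPM in ME induced at P0, which overlapped. ME induced at E10.5 held 33.1, 43.3, 46.4 and 24.0 CPM and RLT Vav Txp 18.4, 19.8, 27.1 and 5.86 CPM. All libraries of the latter 2 groups exceeded all of the former 2, and library 4 of RLT Vav Txp was the lowest of its group. The mean at P28 was 13.3-fold that of WT after induction at E10.5 and 0.846-fold after induction at P0. Log2 fold changes were 2.28 (SE 0.36) at P0 (2.22 without both libraries numbered 1), 3.71 (SE 0.38) for induction at E10.5 at P28, -0.26 (SE 0.35) for induction at P0 and 2.67 (SE 0.37) for RLT Vav Txp.

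Paqr5 (ENSMUSG00000032278, chromosome 9, 61953481 to 62026856, minus strand) codes for a membrane progestin receptor of the progestin and adipoQ receptor family. P0 WT libraries held 15.9, 10.6, 18.1 and 7.21 CPM, and P0 ME libraries 11.6, 16.4, 13.1 and 12.2 CPM, within the same range. At P28 the level was 31.5, 24.6, 28.6 and 25.5 CPM in WT, 19.0, 13.2, 14.7 and 15.1 CPM in ME induced at E10.5, 46.8, 42.3, 39.5 and 38.9 CPM in ME induced at P0 and 11.6, 7.34, 6.94 and 10.6 CPM in RLT Vav Txp. These 4 groups did not overlap one another, in the order induction at P0, WT, induction at E10.5 and RLT Vav Txp. Against WT the log2 fold change was 0.60 (SE 0.24) for induction at P0, -0.83 (SE 0.24) for induction at E10.5 and -1.60 (SE 0.25) for RLT Vav Txp. Its mean was above wild type of the same age by more than the spread of libraries only after induction at P0, at 1.52-fold.

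Ehd3 (ENSMUSG00000024065, chromosome 17, 73804134 to 73832094, plus strand) codes for an EH-domain ATPase that shapes recycling endosomes. The newborn groups overlapped, at 9.58, 9.63, 10.46 and 2.71 CPM in WT and 11.9, 5.59, 7.75 and 9.53 CPM in ME. At P28 the level was 3.10, 5.24, 5.12 and 4.17 CPM in WT and 10.7, 8.34, 6.00 and 6.42 CPM in ME induced at P0. It was 36.8, 32.5, 41.8 and 28.1 CPM in ME induced at E10.5 and 42.1, 22.1, 18.5 and 25.0 CPM in RLT Vav Txp. The latter 2 groups overlapped each other and lay above every other library of the series. As a ratio to P28 WT the mean was 7.90-fold after induction at E10.5, 1.78-fold after induction at P0 and 6.11-fold in RLT Vav Txp. These ratios correspond to log2 fold changes of 2.98 (SE 0.36), 0.83 (SE 0.34) and 2.61 (SE 0.36). At P0 the value was 0.10 (SE 0.34).

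Tifab (ENSMUSG00000049625, chromosome 13, 56173704 to 56178885, minus strand) codes for a forkhead-associated domain protein that binds TIFA and TRAF6 and dampens signalling to NF-kB. Newborn libraries held 21.6, 32.9, 39.9 and 23.8 CPM in WT and 73.0, 66.7, 68.9 and 75.4 CPM in ME, without overlap. At P28 they held 7.46, 11.2, 19.2 and 16.2 CPM in WT, 21.2, 13.1, 15.4 and 18.0 CPM in ME induced at P0 and 30.6, 15.9, 24.9 and 36.7 CPM in RLT Vav Txp, which overlapped in this order. ME induced at E10.5 held 85.1, 63.8, 92.3 and 94.9 CPM, above all of these and overlapping P0 ME. Mean Tifab was 2.40-fold that of WT at P0 and 6.22-fold at P28 for ME induced at E10.5, and 1.25-fold for induction at P0. The log2 fold changes were 1.26 (SE 0.26) at P0, 1.12 without both libraries numbered 1, and 2.63 (SE 0.28), 0.32 (SE 0.26) and 1.00 (SE 0.26) for the 3 ME groups at P28. In the other genes the log2 fold change of P0 ME against P0 WT was 1.01 (SE 0.46) for Ndnf and 0.86 without both libraries numbered 1. It was 1.59 (SE 0.55) for Chga and 1.76 without both libraries numbered 1. For the remaining genes it was -1.34 (SE 0.59) for Slc18a1 and -1.54 without both libraries numbered 1, and 0.04 (SE 0.24) for Paqr5 and 0.22 without both libraries numbered 1. Ehd3, at 0.10 with all libraries, stood at 0.00 without them.

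Levels can be ranked between genes only per length of transcript, here CPM per kilobase of the gene's merged exons. In ME induced at E10.5 at P28, Tifab (24.0 CPM per kilobase) and Chga (22.6) led, followed by Postn (8.11) and Ehd3 (5.31). Paqr5 (3.91), Slc18a1 (3.61), Pcdh7 (3.46), Ndnf (2.11) and Col18a1 (1.02) came after them. P28 WT was led by Paqr5 (6.96 CPM per kilobase), Slc18a1 (4.76) and Postn (4.23), with Pcdh7 last at 0.261. In P0 WT, Col18a1 (11.9) and Slc18a1 (10.3) led. In RLT Vav Txp the highest was Tifab (7.73), followed by Ehd3 (4.11), and the lowest was Ndnf (0.123).

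P28 marrow was compared with P0 liver within WT and within ME induced at E10.5, the 2 contrasts that the choice of genes did not use. Their libraries are those of the contrasts that did choose them, so these tests are not fully independent of the choice. In WT, 2 of the 9 genes rose, as did 3.12% of all genes tested, and 3 fell, as did 4.56%, while 5 did not overlap between groups, the case for 9.27% of all genes. Postn rose, at 1.61 (SE 0.31, edgeR adjusted p = 0.00185) on the log2 scale, and Paqr5 rose, at 1.09 (SE 0.24, edgeR adjusted p = 0.00585). Col18a1 fell, at -4.45 (SE 0.51, edgeR adjusted p = 6.15e-06), from 83.5 ± 39.9 CPM (SD, n = 4) to 3.81 ± 1.56 CPM (SD, n = 4). Pcdh7 fell, at -3.11 (SE 0.37, edgeR adjusted p = 9.03e-06), and Tifab fell, at -1.13 (SE 0.26, edgeR adjusted p = 0.00852). The calls of Tifab and Paqr5 were lost when only the 2 WT groups were fitted (edgeR adjusted p = 0.127 and 0.102), and that of Tifab without P28 WT library 1 (edgeR adjusted p = 0.0518).

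The other 4 genes did not pass the test in WT and their groups overlapped. The estimate was -0.83 (SE 0.46, edgeR adjusted p = 0.309) for Ndnf and -1.12 (SE 0.58, edgeR adjusted p = 0.274) for Slc18a1. It was 0.09 (SE 0.54, edgeR adjusted p = 0.950) for Chga and -0.88 (SE 0.34, edgeR adjusted p = 0.122) for Ehd3. Without P0 WT library 4, which had the lowest Ehd3 of its group, Ehd3 passed at -1.18 (edgeR adjusted p = 0.0135). All 5 WT calls held without both P0 libraries numbered 1.

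Within ME induced at E10.5, 2 of the 9 genes rose (9.79% of all genes tested) and 2 fell (8.45%), and 3 did not overlap between groups (25.4%). Ehd3 rose from 8.69 ± 2.67 CPM (SD, n = 4) in P0 ME to 34.8 ± 5.89 CPM (SD, n = 4) at P28, at 2.00 (SE 0.35, edgeR adjusted p = 0.000358) on the log2 scale. Chga rose, at 1.75 (SE 0.55, edgeR adjusted p = 0.0286). Pcdh7 fell from 117 ± 36.5 CPM (SD, n = 4) to 36.7 ± 10.2 CPM (SD, n = 4), at -1.67 (SE 0.35, edgeR adjusted p = 0.00170). Col18a1 fell, at -1.53 (SE 0.45, edgeR adjusted p = 0.0210), with overlapping groups. The calls of Ehd3 and Pcdh7 held under every alternative run, while those of Chga and Col18a1 were each lost in 4 of 8 fits without 1 library. Chga was lost without library 1 or 2 of either group, with an edgeR adjusted p up to 0.0941. Col18a1 was lost without P0 ME library 1 or 3 or P28 library 1 or 4, up to 0.0949. Without both P0 libraries numbered 1 the Chga value was 1.56 (edgeR adjusted p = 0.0770) and the Col18a1 value -1.35 (edgeR adjusted p = 0.0425). Postn at -0.61 (SE 0.30, edgeR adjusted p = 0.169), Tifab at 0.24 (SE 0.26, edgeR adjusted p = 0.553) and the other 3 genes were not called. Whether the age contrasts of WT and ME differ was not tested.

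**Figure D4:**
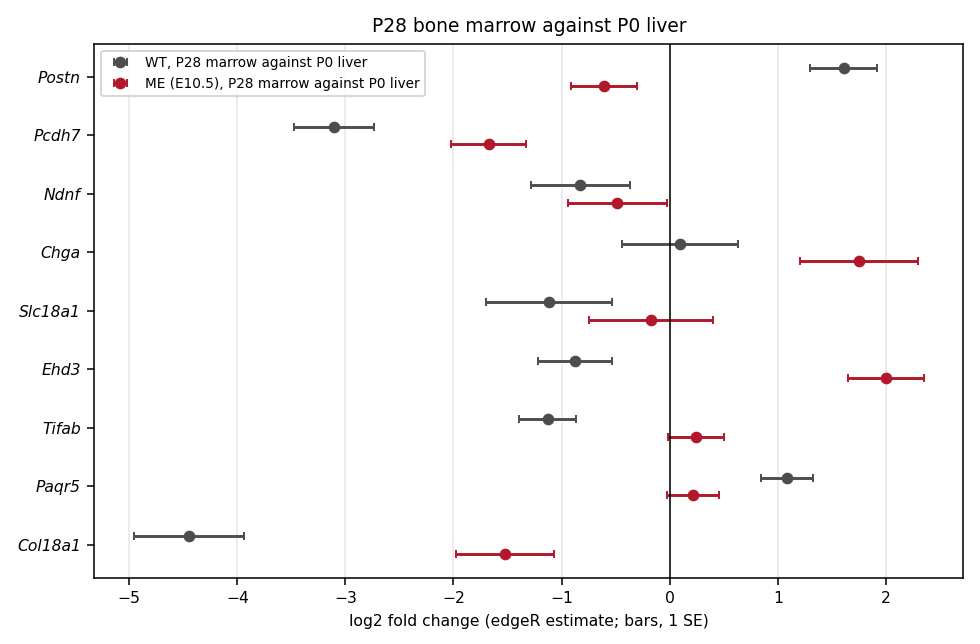
Log2 fold change (horizontal axis, edgeR estimate, bars 1 SE) of each gene in P28 marrow against P0 liver, within WT and within ME induced at E10.5. Pcdh7 lies at -3.11 in WT and -1.67 in ME, Col18a1 at -4.45 and -1.53, and Ehd3 at -0.88 and 2.00.

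Tifab acts on a pathway in which TIFA gathers TRAF6 to activate the kinase TAK1, coded by Map3k7, through TAB adaptors. Of the 14 listed genes of this pathway, all tested, 6 were called higher (7.82% of all genes tested) and 1 lower (4.44%) in ME induced at E10.5 than in P28 WT, with a list median log2 fold change of 0.50 against -0.10 over all genes. Traf3 rose from 18.9 ± 7.07 CPM to 57.3 ± 9.82 CPM (SD, n = 4), at 1.60 (SE 0.35, edgeR adjusted p = 0.00591). Map3k7 rose, at 1.12 (SE 0.27, edgeR adjusted p = 0.0101), as did Tab3, Traf6, Usp15 and Traf2. These 4 calls were all lost with plain library totals. In the 8 fits without 1 library, Traf2 lost its call in 8, Tab3 and Traf6 in 5 each and Usp15 in 2. Tifa, the adaptor itself, fell from 79.5 ± 13.1 CPM to 47.9 ± 4.98 CPM (SD, n = 4), at -0.73 (SE 0.24, edgeR adjusted p = 0.0458). The Traf3 call held under every alternative, and that of Map3k7 was lost without P28 WT library 2 (edgeR adjusted p = 0.0544). The count of 6 fell to 1 without P28 WT library 2, to 3 without P28 WT library 1 or 3 or P28 ME library 2 or 3, and to 2 with plain library totals as the scaling. The Tifa call was lost without any 1 of 7 libraries, P28 WT library 4 being the exception.

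In RLT Vav Txp against ME induced at E10.5, 3 of the 14 were lower (9.38% of all genes tested) and 1 higher (8.5%). Traf6 fell from 106 ± 7.98 CPM to 48.5 ± 12.9 CPM (SD, n = 4), at -1.12 (SE 0.25, edgeR adjusted p = 0.00354), and Tifa rose to 108 ± 9.90 CPM, at 1.17 (SE 0.24, edgeR adjusted p = 0.00207). The count of 3 was 1 without RLT Vav Txp library 4, 5 without library 1, and 9 with limma voom. With age within ME, 5 rose (9.79% of all genes tested) and 1 fell (8.45%). Traf3 rose, at 1.67 (SE 0.35, edgeR adjusted p = 0.00195), while Tifa fell from 188 ± 57.1 CPM to 47.9 ± 4.98 CPM, at -1.98 (SE 0.25, edgeR adjusted p = 1.10e-05). Without both P0 libraries numbered 1 the values were 1.82 for Traf3 (edgeR adjusted p = 0.00205) and -2.11 for Tifa (edgeR adjusted p = 3.82e-08). Without P0 ME library 4 the count of 5 was 3. ME induced at P0 had 0 of the 14 called by edgeR against P28 WT, with 8 at an unadjusted p under 0.05, 1 by DESeq2 and 10 by limma voom, and a list median of 0.45 against -0.09 over all genes. P0 ME had 0 called by edgeR against P0 WT, with 2 at an unadjusted p under 0.05, 0 by DESeq2 and 0 by limma voom. RLT Vav Txp had 0 called by edgeR against P28 WT, with 1 at an unadjusted p under 0.05, 0 by DESeq2 and 0 by limma voom. In mean CPM at P28, Tifab and Tifa stood at 84.0 and 47.9 in ME induced at E10.5 and at 13.5 and 79.5 in WT. They stood at 16.95 and 54.6 in ME induced at P0 and at 27.0 and 108 in RLT Vav Txp. In newborn liver they stood at 29.6 and 128 in P0 WT and at 71.0 and 188 in P0 ME.

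**Figure D5:**
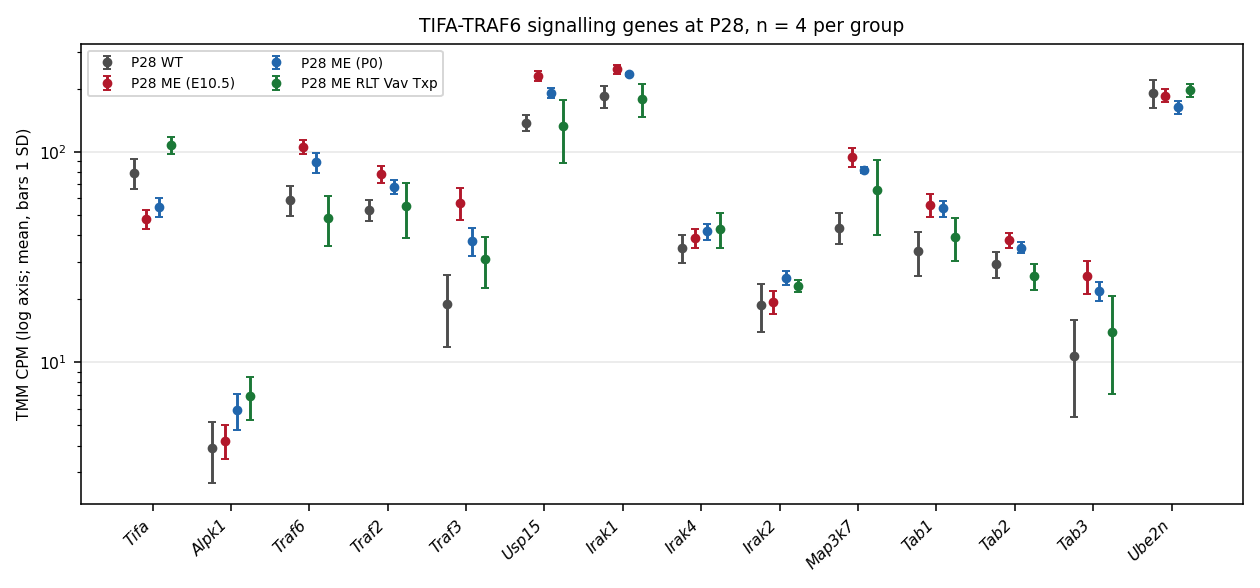
Mean TMM-normalised CPM (vertical log axis, bars 1 SD, n = 4) of 14 genes of TIFA-TRAF6 signalling in the 4 P28 groups. Traf3 and Map3k7 are higher in ME induced at E10.5 than in WT, Tifa is lower, and RLT Vav Txp has 108 CPM of Tifa and 48.5 CPM of Traf6.

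Relatives of Ehd3 in endocytic recycling numbered 13, of which 2 were called higher (7.82% of all genes tested) and 1 lower (4.44%) in ME induced at E10.5 than in P28 WT. Ehd4, a close paralogue, rose from 94.1 ± 14.2 CPM to 149 ± 13.3 CPM (SD, n = 4), at 0.66 (SE 0.18, edgeR adjusted p = 0.0165), a call lost without P28 WT library 1 or 2 or P28 ME library 3 and with plain totals. In RLT Vav Txp against ME induced at E10.5, 2 rose (8.5%) and 3 fell (9.38%). Rab10, a trafficking GTPase, fell there, at -0.55 (SE 0.14, edgeR adjusted p = 0.00752), under every alternative. Of those 5, the other 4 each lost their call without at least 1 library, and without ME library 1 the counts were 0 and 1. With age, 2 fell in WT (4.56% of all genes tested), and 1 rose (9.79%) and 1 fell (8.45%) in ME. In that order, these counts reached 0 without P0 WT library 2, P0 ME library 4 and P0 ME library 2. The 2 higher after induction at E10.5 were 0 without P28 WT library 1. P0 ME against P0 WT had 0 called by edgeR, with 1 at an unadjusted p under 0.05, 0 by DESeq2 and 0 by limma voom, and induction at P0 against P28 WT had 0, with 2 at an unadjusted p under 0.05, 0 by DESeq2 and 5 by limma voom.

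The monoamine list around Slc18a1 held 16 genes, 12 of them tested. Slc18a2, which codes for VMAT2, the transporter of mast cells, platelets and neurons, rose in RLT Vav Txp, where Slc18a1 was lowest. It stood at 166 ± 49.0 CPM there against 54.6 ± 5.98 CPM in P28 WT (SD, n = 4), at 1.61 (SE 0.32, edgeR adjusted p = 0.00283). In the RLT Vav Txp libraries mast and basophil markers summed to 84.9 to 199 CPM, against 7.90 to 43.7 CPM in the other P28 libraries, and megakaryocyte markers to 223 to 458 CPM, against 36.4 to 70.8 CPM. The part of those cells in the Slc18a2 level was not tested. Against ME induced at E10.5, 4 of the 12 were higher in RLT Vav Txp (8.5% of all genes tested) and 0 were lower (9.38%). Slc18b1 was among the 4 higher, at 1.45 (SE 0.37, edgeR adjusted p = 0.00829). Slc18b1, a vesicular polyamine transporter, and Maoa, a breakdown enzyme, were called lower in ME induced at E10.5 than in P28 WT. Slc18b1 held its call without each library in turn, while Maoa lost its call without P28 WT library 1, 2 or 3 or ME library 1, 2 or 4. In WT, 5 genes fell from P0 liver to P28 marrow (4.56% of all genes tested). Hdc, the histidine decarboxylase of mast cells and basophils, fell from 477 ± 496 CPM to 5.18 ± 1.52 CPM, at -6.53 (SE 0.82, edgeR adjusted p = 6.41e-05). Its P0 WT libraries ran from 99.0 to 1185 CPM, and the value was -5.55 without P0 WT library 1 and -5.54 without both P0 libraries numbered 1 (edgeR adjusted p = 3.09e-07). Tph1, which starts serotonin synthesis, averaged 184 ± 259.5 CPM in P0 WT and stood at or under 3 counts in P28 WT, a call that held without both P0 libraries numbered 1 (edgeR adjusted p = 0.000966). Mast and basophil markers summed to 10740 CPM in P0 WT library 1, to 941 to 2113 CPM in the other 3 P0 WT libraries and to 7.90 to 43.4 CPM in P28 WT, and their part in these falls was not tested. The 5 falls were 3 without P28 WT library 1, 3 or 4.

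Granins and prohormone processing genes, the usual company of Chga, were low or uncalled. Of 10 listed genes 5 were tested, and edgeR called 0 of them in each of the 9 comparisons, as did DESeq2 and limma voom, with 1 gene at an unadjusted p under 0.05 in WT with age and 0 elsewhere. Chgb, the nearest relative of Chga, averaged at most 0.368 CPM in any group, and Pam, a peptide-amidating enzyme, 10.9 to 14.5 CPM. Non-clustered protocadherins other than Pcdh7 averaged at most 1.64 CPM in any group. Of 8 tested, edgeR called 1, Pcdh9, higher in ME induced at E10.5 than in P28 WT (7.82% of all genes tested). That call was lost without any 1 library but ME library 2. Pcdh9 was also called lower with age in WT (4.56%), at -8.735 (SE 2.055, edgeR adjusted p = 0.0120), a call lost with limma voom. Without both P0 libraries numbered 1 the value for Pcdh9 was -9.13 (edgeR adjusted p = 0.00737). Its mean was 0 CPM in P28 WT and 0.167 CPM in ME induced at E10.5.

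Matrix genes and receptors related to Postn and Col18a1 numbered 25, all tested, and edgeR called 0 in P0 ME against P0 WT, with 1 at an unadjusted p under 0.05, 0 by DESeq2 and 0 by limma voom. It called 0 in ME induced at E10.5 against P28 WT, with 4 at an unadjusted p under 0.05, 0 by DESeq2 and 5 by limma voom, and 0 for induction at P0 against P28 WT, with 0 at an unadjusted p under 0.05, 0 by DESeq2 and 0 by limma voom. In RLT Vav Txp against ME induced at E10.5, 2 were higher (8.5% of all genes tested) and 3 lower (9.38%). Lamc1, a laminin chain of basement membranes, fell from 30.1 ± 9.66 CPM to 10.8 ± 3.23 CPM (SD, n = 4), at -1.48 (SE 0.36, edgeR adjusted p = 0.00616), under every alternative. Itgb3, the beta chain of an integrin that binds periostin, rose in RLT Vav Txp against P28 WT, at 2.20 (SE 0.48, edgeR adjusted p = 0.00627), where megakaryocyte markers summed to 223 to 458 CPM against 57.9 to 70.8 CPM. The part of those cells was not tested. With age, 2 rose (3.12% of all genes tested) and 2 fell (4.56%) in WT, and 2 rose (9.79%) and 1 fell (8.45%) in ME. The 2 that rose were 0 without P0 WT library 2 and 0 without P0 ME library 4, while Ccn1, a matricellular protein, fell in ME, at -5.82 (SE 1.18, edgeR adjusted p = 0.00137), under every alternative, and at -6.22 without both P0 libraries numbered 1.

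The list around Paqr5 held 12 genes, 10 of them tested, and included Pgrmc1 and Pgrmc2, which lie outside its family. Paqr7, another membrane progestin receptor, rose with age in WT from 42.8 ± 15.8 CPM to 100.5 ± 13.0 CPM (SD, n = 4), at 1.23 (SE 0.19, edgeR adjusted p = 0.000228). Paqr8 rose with age in ME, at 1.67 (SE 0.35, edgeR adjusted p = 0.00170), under every alternative, and Adipor1, an adiponectin receptor, fell, at -0.87 (SE 0.17, edgeR adjusted p = 0.00119). Without both P0 libraries numbered 1 the values were 1.29 for Paqr7 and 1.91 for Paqr8, and all 3 calls held. At P28, edgeR called 0 of the 10 in ME induced at E10.5 against WT, with 1 at an unadjusted p under 0.05, 1 by DESeq2 and 2 by limma voom. In P0 ME against P0 WT it called 1 higher (0.364% of all genes tested), Paqr7, at 0.83 (SE 0.19, edgeR adjusted p = 0.0370). Among the fits that lost this Paqr7 call were those without P0 WT library 2, with plain library totals and with limma voom. In ME induced at P0, where Paqr5 was highest, 1 was called lower than in P28 WT (1.08% of all genes tested). This was Pgrmc1, a call lost without any 1 library but P28 WT library 4.

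The nearest tested protein-coding genes on either side of the 9 genes were chosen by position alone. Of these 18 neighbours edgeR called 0 in P0 ME against P0 WT, with 4 at an unadjusted p under 0.05, 0 by DESeq2 and 0 by limma voom. It called 0 in ME induced at P0 against P28 WT, with 6 at an unadjusted p under 0.05, 1 by DESeq2 and 6 by limma voom, and 0 between the 2 inductions, with 1 at an unadjusted p under 0.05, 0 by DESeq2 and 2 by limma voom. In ME induced at E10.5 against P28 WT, 3 were higher (7.82% of all genes tested) and 1 lower (4.44%). Atp6v1b2, a proton pump subunit that overlaps Slc18a1, was higher, at 0.61 (SE 0.14, edgeR adjusted p = 0.00647), a call lost without P28 WT library 1 (edgeR adjusted p = 0.0519), while Slc18a1 was not higher. Itpk1, 3554 bases from Chga, was higher as Chga was, at 0.70 (SE 0.21, edgeR adjusted p = 0.0307), a call lost without P28 WT library 1, 2 or 3 or ME library 1 or 3. In RLT Vav Txp against ME induced at E10.5, 4 neighbours were higher (8.5% of all genes tested) and 4 lower (9.38%). The neighbour moved with the sign of its member in 9 of 18 pairs there, and in 8 of 18 for ME induced at E10.5 against P28 WT. Among the lower, Itpk1 fell, at -0.98 (SE 0.21, edgeR adjusted p = 0.00321), and Macroh2a1, which neighbours Tifab, fell, at -1.32 (SE 0.19, edgeR adjusted p = 6.20e-05), both under every alternative. In the same comparison Lpl, a lipase made by macrophages and the neighbour of Slc18a1, rose, at 6.01 (SE 0.88, edgeR adjusted p = 0.000178), from 1.87 to 120.3 CPM, with macrophage sums of 754 to 3248 CPM in RLT Vav Txp. The part of macrophages in the Lpl level was not tested. Xdh, beside Ehd3, rose in the same comparison, at 2.59 (SE 0.40, edgeR adjusted p = 0.000134), while Ehd3 itself stood at -0.37 (SE 0.34).

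Correlations of log2 CPM over the 24 libraries describe which genes followed each other, and they mix differences between groups, which chose the members, with spread inside groups. Among the 36 pairs of the 9 genes the median Pearson r was 0.34, from -0.70 (Pcdh7 and Paqr5) to 0.825 (Pcdh7 and Tifab). On deviations from the group means, which the choice did not use, the median was 0.21. Pcdh7 and Tifab then had r = -0.03, so their likeness lay between groups. Chga and Paqr5 had r = 0.75 on deviations and 0.46 on levels, and Pcdh7 and Col18a1 0.71 on deviations. Libraries share depth and cell mixture, which deviations still hold.

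Over the same 24 libraries, the gene most like Postn was Ssbp2 (r = 0.917), followed by Mef2c (0.897), a transcription factor of progenitors. Pcdh7 was most like Pde3b (0.915, 0.704), and Tifab came next (0.825, -0.0349). Ndnf followed Crispld2 (0.923, 0.803) and Tubb4a (0.908, 0.912). Chga followed Lasp1 (0.908, 0.719), and Slc18a1 followed Armcx4 (0.915, 0.538) and Hhex (0.881, 0.762). Paqr5 was most like Hlf (0.825, 0.132), a transcription factor of stem cells. Col18a1 was most like Fbln1 (0.869, 0.491), a matrix gene, and Ehd3 most like Sars (0.795, 0.704). Among the ranked genes, Prss16 (0.825, 0.283) and Pcdh7 (0.825, -0.0349) were closest to Tifab.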

How the data were processed

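The deposited table gives raw counts for Ensembl genes in 24 library columns. The submitters' processing notes name STAR 2.7.9a, Subread, featureCounts 2.0.3 and GRCm38. The strand setting and the handling of reads with several matches are not given in the sources used here. Repeated entries of 168 identifiers (287 rows) were dropped. Genes were kept by edgeR's filterByExpr (minimum count 10, 23059 genes), scaled by TMM and fitted with the robust quasi-likelihood model over all 24 libraries (18 residual degrees of freedom). Calls were made at an adjusted p (Benjamini-Hochberg) under 0.05. Each SE was derived from the test, as the absolute log2 fold change divided by the square root of its quasi-likelihood F statistic. CPM are TMM-normalised, and correlations used log2 CPM with a prior count of 2. Coordinates are GENCODE M21 on GRCm38.

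The members, lists and comparisons were chosen with earlier results of these data known. Named were all members, the 3 most alike genes of each, position neighbours and called list genes. Marker lists covered stem, macrophage, stromal, endothelial, osteoblast, neural, hepatocyte, erythroid, mast, megakaryocyte, neutrophil and B cells. At 3 counts or fewer a gene was taken as at its floor, which covers counting error only. Alternatives were RLE scaling, DESeq2, limma voom, other filters, fewer groups, a replicate block and each library left out. Chosen after seeing the data were plain totals and a fit without both P0 libraries numbered 1. On simulated data for WT at P28 against P0 (23059 genes), 16 of 67 genes changed 2-fold, 25 of 67 changed 4-fold and 39 of 66 changed 8-fold were called, with 2 of 22859 unchanged genes. Versions were edgeR 4.0.16, DESeq2 1.42.0 and limma 3.58.1 in R 4.3.3, with Python 3.11.15.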

Additional observations from a re-analysis of the deposited data

Results flagged for a closer look

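In RLT Vav Txp, library 1 had 5.05 CPM of Slc18a1 and stood apart from the other 3 libraries of its group, which held 0.234 to 0.771 CPM. In P0 WT, library 4 had 2.71 CPM of Ehd3 against 9.58 to 10.46 CPM in the other 3. Chance alone sets a library apart in this way in about 1 of 20 groups, and 54 groups of 4 values were examined. Paqr5 moved in opposite directions after the 2 inductions, with every ME library at E10.5 below and every ME library at P0 above the P28 WT range. Its log2 fold change against P28 WT was -0.832 for induction at E10.5 and 0.604 for induction at P0. This difference was not tested, since it is one that chose the gene, and both values share the P28 WT libraries.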

How the results depend on the processing

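The 5 calls with age in WT became 3 when only the groups compared were fitted, and ranged from 4 to 6 without 1 library. The 4 calls with age in ME became 2 with no filter on low counts, and ranged from 2 to 4 without 1 library. They were 5 and 3 without both P0 libraries numbered 1. Other alternatives left these counts within 1.5 times. The cause of these changes was not tested. Near 0, signs turned: Chga in WT was -0.12 without P0 WT library 2, -0.29 without P0 WT library 4 and -0.0057 without P28 WT library 3, against 0.09, within a range from -0.29 to 0.99 without 1 library. Slc18a1 in ME was 0.0069 with limma voom, 0.1516 without both P0 libraries numbered 1 and 0.1527 without P0 ME library 1, against -0.17, within a range from -0.43 to 0.15. Replicate numbers were not taken as pairing the libraries. Same-numbered deviations of P0 WT and P0 ME correlated over 0.1 in 3 of 4 pairs (r from 0.0531 to 0.66), where the libraries numbered 1 stand apart in both groups, and in at most 2 of 4 for other groups. With a replicate block over the 20 numbered libraries, 6 genes were called in WT and 4 in ME, as without the block, and Slc18a1 in WT reached -1.001 (edgeR adjusted p = 0.0159). Over all genes, calls with age ran from 481 to 2797 in WT against 1771, and from 2687 to 5936 in ME against 4206. Those of ME induced at E10.5 against P28 WT ran from 893 to 6505 against 2827. For the other contrasts, in the order of the overview, they ran from 5 to 800 (148), 7 to 5196 (362), 4 to 2333 (11), 635 to 1639 (950), 2061 to 8112 (4122) and 1288 to 7432 (2687).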

Other observations

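Mean levels of 4 genes that neighbour the 9 by position are given here as values. Macroh2a1, which codes for a histone variant and lies 37343 bases from Tifab, averaged 1526 CPM in P28 WT, 2207 CPM in ME induced at E10.5, 1732 CPM in ME induced at P0 and 882 CPM in RLT Vav Txp. Kif23, a mitotic kinesin 6707 bases from Paqr5, averaged 82.9, 132, 106 and 62.1 CPM in the same order. Tnip3, an inhibitor of NF-kB signalling beside Ndnf, averaged 98.6, 63.7, 99.1 and 155 CPM, and rose with age in WT from 34.5 CPM. Stim2, a calcium sensor and the nearest tested gene below Pcdh7, averaged 33.2, 48.8, 44.0 and 27.6 CPM, and lies 3596910 bases away.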
